A study of Mus musculus with 13 samples.

Results

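The livers compared here are those of young mice with 1 functional copy of the retinoblastoma gene Rb1 after diethylnitrosamine (DEN), set against untreated wild type livers. The arrays were chosen by their labels: 2 of heterozygous RB after DEN and 2 of untreated wild type, 4 of the 13 arrays of the series. Heterozygous mice carried 1 functional Rb1 allele and 1 allele in which loxP sites flank exon 19, together with Cre recombinase under the hepatocyte-specific albumin promoter. The wild type mice had floxed Rb1 and no Cre, so the comparison holds DEN, the loss of 1 allele and the presence of Cre together. DEN was given once, by intraperitoneal injection in saline at 20 mg per kg of body weight, to mice aged 14 days, and livers were taken after 24 hours, while untreated littermates received saline. Wild type livers without Cre after DEN (2 arrays) served as the second comparison, since they had the same injection with both Rb1 alleles intact. The remaining arrays were of the N750F point mutant of RB (5) and of the RB knockout (2), all after DEN. A further label field names the genotype of the heterozygous arrays LOH, which is usually read as loss of heterozygosity, while their descriptions name 1 functional allele. Each array is taken as 1 liver, which the labels do not state in so many words, so p-values measure the spread between these samples.

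DEN is converted by cytochromes P450 of hepatocytes into an alkylating agent that damages DNA. Damaged DNA stabilises p53, which induces genes of arrest, repair and its own control, and reactive products activate NRF2, a transcription factor of antioxidant and conjugation enzymes. RB binds E2F factors and holds back genes of DNA replication and cell division. At the age studied the mouse liver is still growing, and its fetal genes are being shut down.

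Levels are given as log2 of the quantile-normalised intensity plus 16. On this scale 1 unit is a 2-fold difference in intensity for bright genes and more than a 2-fold difference for dim ones. The levels are not adjusted for array batch. Differences, SE and p come from a fit with a batch term, so a difference need not equal that between the printed levels. The batch term had an adjusted p under 0.05 (limma) for 2187 of the 14953 genes tested. Rb1 stood at 7.27 and 7.15 in the untreated livers, 7.92 and 7.62 in the heterozygous livers and 8.04 and 8.01 in wild type livers after DEN. Its difference between heterozygous and untreated was 0.64 ± 0.37 (SE), with an adjusted p of 0.45, and the position of the probes relative to exon 19 is not known here, so Rb1 checks no label. The untreated arrays and heterozygous array 3 were of batch 1, with median intensities of 77.8 to 82.1, and heterozygous array 4 was of batch 2, with 58.8. Over 35556 probe sets the untreated pair correlated at 0.967, the heterozygous pair at 0.915, and pairs across these groups at 0.90 to 0.951. The median gene differed by 0.24 between the untreated arrays and by 0.42 between the heterozygous ones. The untreated pair held 1 male-type and 1 female-type liver by Xist and Y-linked genes. Both heterozygous livers had Y-linked levels of the male type (9.41 and 9.34), but array 4 had Xist at 8.05, between 6.16 in array 3 and 12.31 in the female-type untreated liver. Both wild type livers after DEN were female-type, and they too were split over batch 1 (array 3) and batch 2 (array 4). The parts of sex, of batch and of that array in the differences below were not tested apart from the alternatives given with them. All 17 measured hepatocyte markers were bright enough to test, with means of 11.59 and 11.57 in untreated and 11.55 and 11.18 in heterozygous livers. Hba-a1 and Hbb-bt, which define red cells, were not measured by a probe set with 1 symbol.

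After DEN, heterozygous livers held more RNA of some detoxification enzymes and p53 targets than untreated livers and less of some mitotic and fetal growth genes and of the metallothioneins Mt1 and Mt2. Of 14953 genes tested 210 passed an adjusted p of 0.05 (1.4% of those tested), of which 101 were higher (0.675%) and 109 lower (0.729%). Without adjustment 2336 genes had a p under 0.05. The smallest change among those that passed was 1.09 in size on the log2 scale, and 34 rose and 30 fell by more than 4-fold. Over all genes tested the median difference was -0.04. Both heterozygous livers were above both untreated livers in 97 of the 101 genes that rose. In 103 of the 109 that fell both were below. Over all genes tested 2571 were above and 3973 below in this way. Being called with these same arrays largely fixes the separation among the 210. The pairs overlapped for 4 risers, Actl6a, Clcc1, Kpna3 and Msl2, and for 6 fallers, Atf5, Cd5l, Commd1, Dpysl2, Ndufb7 and Sec61b. Within batch 1, where heterozygous array 3 stands alone against the untreated pair, 2 genes were called, 1 of them among the 210. All of the 210 had the same sign there, which the choice of these genes largely fixes, since they were called with the same 3 arrays in the fit. The count fell to 60 without heterozygous array 3, to 32 without heterozygous array 4, to 28 without untreated array 1 and to 104 without untreated array 2. Of the 114 called genes considered by name, 27, 26, 25 and 58 were still called in these 4 fits. The count of all calls rose to 407 without knockout array 2, which only lends its spread to the fit. Knockout array 2 held Ttn, a muscle gene, at 13.59, against 4.65 to 5.93 in every other array. With a covariate for the Y-linked level 100 genes were called, 89 of them among the 210.

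**Figure D1:**
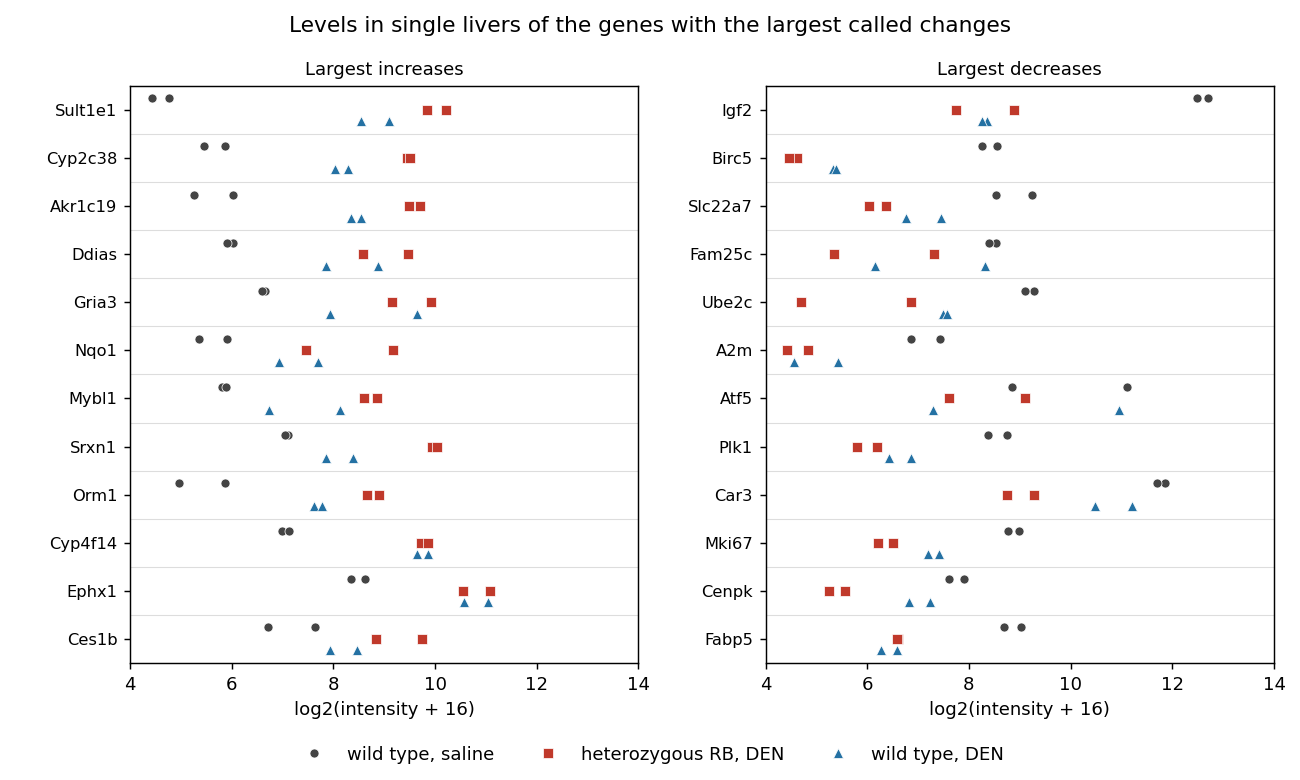
The plot shows log2(intensity + 16) in each liver for the 12 genes with the largest called increase (left) and the 12 with the largest called decrease (right). Circles are untreated wild type, squares heterozygous RB after DEN and triangles wild type after DEN, 2 livers each. The untreated and heterozygous livers are apart for every gene but Atf5, and the wild type livers after DEN mostly lie beside or short of the heterozygous ones.

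Among called genes that are not predicted loci, the largest increase was in Sult1e1, the sulfotransferase that inactivates estrogens, at 4.43 and 4.77 in untreated and 9.84 and 10.22 in heterozygous livers. The difference was 5.40 ± 0.60 (adjusted p 0.00151), and 6.75 with an offset of 1 or 4.21 with an offset of 50, since the untreated level lay near the floor. Wild type livers after DEN also had high Sult1e1, at 9.10 and 8.55, and the RB knockouts had 4.94 and 7.37. In the 5 N750F livers it ran from 4.35 to 5.29, with a median of 4.71, at the untreated level. Cyp2c38, a cytochrome P450 of the 2c family, stood at 5.87 and 5.45 in untreated and at 9.44 and 9.50 in heterozygous livers. Its rise of 3.80 ± 0.31 had the smallest adjusted p (0.000132) and passed under all 18 alternatives run, with values of 3.14 to 4.28. Akr1c19, of the aldo-keto reductase family, went from 6.02 and 5.26 to 9.48 and 9.70, a rise of 3.71 ± 0.53. Ddias, which protects against apoptosis after DNA damage, went from 6.03 and 5.90 to 9.47 and 8.58, a rise of 3.55 ± 0.39. Gria3, a glutamate receptor subunit, rose by 3.36 ± 0.39, from 6.66 and 6.60 to 9.92 and 9.15. Mybl1, a MYB-family transcription factor, rose by 3.24 ± 0.43, from 5.80 and 5.89 to 8.86 and 8.60. In each of these 6 genes, chosen for their large rise, the heterozygous livers were far above the untreated pair. The wild type livers after DEN lay above it too.

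Several p53 targets rose. Of 35 tested members 8 rose, against 0.675% of all genes tested, none fell and 27 did not pass, and the median difference was 0.94 against -0.04 over all genes. The mean of the list was 6.99 and 7.11 in untreated and 7.89 and 7.71 in heterozygous livers. Ccng1, cyclin G1, a negative regulator of p53 signalling, had levels of 10.59 and 10.69 in untreated and 12.69 and 12.54 in heterozygous livers, and rose by 2.00 ± 0.23 (adjusted p 0.00151). Mdm2, the ubiquitin ligase that degrades p53, went from 8.77 and 8.62 to 10.42 and 9.38 and rose by 1.73 ± 0.32 (adjusted p 0.0217). Polk, a translesion DNA polymerase that copies past damaged bases, was at 7.48 and 7.47 in untreated and 9.81 and 9.40 in heterozygous livers, a rise of 2.49 ± 0.38. Both heterozygous livers were above both untreated livers for all 3 of these genes, which their being called with the same arrays largely fixes. Over the whole list this held for 22 of the 35 tested members, against 2571 of the 14953 genes tested. Phlda3, an inhibitor of Akt, rose from 5.04 and 4.72 to 6.85 and 6.82. Trp53inp1, a stress-induced cofactor of p53, rose from 9.30 and 8.44 to 11.08 and 10.39. Ei24, induced early by p53, rose from 10.09 and 10.43 to 11.61 and 11.96. Plk2, a kinase of the polo family, rose by 2.61 ± 0.50 and Zfp365 by 2.24 ± 0.52. Not every known target moved with them: Sesn1 differed by -0.42, Btg2 by -0.41 and Gadd45a by -0.61, and Bbc3, which drives apoptosis, by 0.29, none past the test. Cdkn1a, Bax and Gdf15 were not measured by a probe set with 1 symbol, and Eda2r and Ptp4a3 were too dim to test. Among 18 tested genes of alkylation repair and translesion synthesis Polk alone rose, 17 did not pass, and the median was 0.37, while Mgmt and Mpg were too dim to test. The 8 p53 calls became 3 without heterozygous array 3, 1 without heterozygous array 4, 3 without untreated array 1 and 4 without untreated array 2. In wild type livers after DEN, set against the same untreated arrays, 5 of the 35 were higher and the median was 0.60. The difference between heterozygous and wild type was 0.13 for Ccng1 (95% interval -0.35 to 0.61) and 0.14 for Mdm2 (-0.51 to 0.80). For Polk it was 0.85 (0.08 to 1.62), not past the adjusted threshold.

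The promoters of Ccng1 and Polk are shown because these are the 2 risers of smallest p in the p53 list that hold the decamer bound by one p53 dimer. Polk has 2 windows, and the one with the decamer is printed, while the other has none. Each window runs from 250 bases before to 50 after the RefSeq start, on GRCm38.p6, with the decamer in capitals.
Ccng1, chr11:40755237-40755536, minus strand: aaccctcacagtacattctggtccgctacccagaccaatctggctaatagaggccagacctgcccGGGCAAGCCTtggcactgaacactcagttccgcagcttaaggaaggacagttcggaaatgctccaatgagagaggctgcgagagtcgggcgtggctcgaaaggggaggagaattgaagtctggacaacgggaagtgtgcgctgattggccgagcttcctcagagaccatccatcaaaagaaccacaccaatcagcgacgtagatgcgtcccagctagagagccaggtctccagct
Polk, chr13:96519138-96519437, minus strand: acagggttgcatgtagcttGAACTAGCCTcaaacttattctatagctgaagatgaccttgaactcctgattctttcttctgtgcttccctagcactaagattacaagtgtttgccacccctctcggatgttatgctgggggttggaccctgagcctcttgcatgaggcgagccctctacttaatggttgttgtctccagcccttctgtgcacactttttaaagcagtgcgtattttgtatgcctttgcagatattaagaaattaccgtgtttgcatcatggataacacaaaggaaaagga
The search covered both strands. The searched pattern, though not these decamers, is its own reverse complement, so the same place was found on each strand. A decamer of this pattern was present in 10 of 37 windows of tested p53 targets (27%), which belong to 27 of the 35 genes. It was in 7.24% of the windows of all genes tested and in 8.36% of all 32851 windows of 300 bases. Among the 8 that rose, Ei24 and Mdm2 also held it, Phlda3, Plk2 and Zfp365 did not, and Trp53inp1 had no window. A match describes the letters in the window and does not show binding.

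A number of NRF2 targets rose as well. Of 27 tested members 7 rose, against 0.675% of all genes tested, none fell and 20 missed the threshold, and the list median was 0.61. Srxn1, sulfiredoxin, which restores oxidised peroxiredoxins, was at 7.10 and 7.04 in untreated and at 9.94 and 10.04 in heterozygous livers, a rise of 3.10 ± 0.44 (adjusted p 0.0046). Nqo1, a quinone reductase, was at 5.36 and 5.91 in untreated and at 9.17 and 7.46 in heterozygous livers, a rise of 3.26 ± 0.44 (adjusted p 0.00389). The 2 heterozygous livers thus differed more for Nqo1 than for Srxn1, and both stayed above the untreated pair. Ephx1, microsomal epoxide hydrolase, went from 8.62 and 8.34 to 11.08 and 10.55. Ugdh, which makes UDP-glucuronic acid for conjugation, went from 7.99 and 7.88 to 10.48 and 10.78, a rise of 2.59 ± 0.32. Aox1, aldehyde oxidase, went from 7.02 and 6.82 to 9.50 and 9.37, and Entpd5, an endoplasmic reticulum nucleotidase, from 8.76 and 8.34 to 10.36 and 10.10. Nfe2l2, which encodes NRF2 itself, rose by 1.20 ± 0.25. The enzymes of glutathione synthesis did not pass, with Gclc at 0.61 and Gclm at 0.53, nor did Hmox1, heme oxygenase, at 0.11 or Txnrd1 at 1.26. Taldo1, of the pentose phosphate pathway, had the lowest value of the list, -1.37, also short of the threshold. The 7 calls became 3 without heterozygous array 3, and 5 or 6 without each of the other 3 livers. In wild type livers after DEN 4 of the 27 were higher and 1 lower, with a median of 0.40. Heterozygous minus wild type was 1.86 for Srxn1 (0.97 to 2.76) and 1.01 for Nqo1 (0.11 to 1.90), neither past the adjusted threshold, and 0.01 for Ephx1 (-0.61 to 0.63).

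Ugdh and Srxn1 are shown since they had the smallest p of the called NRF2 targets whose windows hold an antioxidant response element, searched as TGACNNNGC or TGAGNNNGC on both strands and printed in capitals on the gene's strand.
Ugdh, chr5:65435793-65436092, minus strand: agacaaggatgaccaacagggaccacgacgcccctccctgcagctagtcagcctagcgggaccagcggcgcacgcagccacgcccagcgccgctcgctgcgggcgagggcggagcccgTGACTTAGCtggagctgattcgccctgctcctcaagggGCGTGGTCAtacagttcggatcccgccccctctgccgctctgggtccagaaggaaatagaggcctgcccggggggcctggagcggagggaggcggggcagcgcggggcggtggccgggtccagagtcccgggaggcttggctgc
Srxn1, chr2:152105274-152105573, plus strand: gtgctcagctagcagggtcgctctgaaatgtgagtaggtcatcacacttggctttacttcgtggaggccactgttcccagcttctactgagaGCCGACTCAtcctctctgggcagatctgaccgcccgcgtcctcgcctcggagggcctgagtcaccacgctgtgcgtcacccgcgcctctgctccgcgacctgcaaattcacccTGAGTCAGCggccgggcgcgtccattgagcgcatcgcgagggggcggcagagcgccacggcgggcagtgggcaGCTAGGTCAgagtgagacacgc
Such an element was in 14 of 30 windows of tested NRF2 targets (46.7%, from 23 of the 27 genes), against 30.4% of the windows of genes tested, so the pattern is common. The Ugdh window holds 2 matches and that of Srxn1 holds 3. Of the other 5 called members, Nfe2l2 held the element in this window.

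Some enzymes of each drug-metabolising family rose, though most members did not pass. Of all genes tested 0.675% were called higher, and the median difference over all was -0.04. Of 18 glutathione S-transferases 4 rose, with a list median of 0.60. Gstp1, the pi-class enzyme, was at 8.15 and 7.70 in untreated and at 10.17 and 10.31 in heterozygous livers, a rise of 2.34 ± 0.33. Gstm1 rose from 11.23 and 11.22 to 12.76 and 12.80. Gstm3 rose by 1.09 ± 0.25 and Gstm6 by 1.55 ± 0.35. Mu-class genes are close copies of each other, so signal may be shared among their probes, and a second probe set of Gstm3 gave 2.30. Of 46 cytochromes P450 3 rose, with a median of 0.44: Cyp2c38, above, Cyp4f14 and Cyp1a1. Cyp4f14, a fatty acid hydroxylase, went from 6.98 and 7.13 to 9.72 and 9.86. Cyp2e1, the main activator of DEN in liver, differed by 0.20 and did not pass. Of 27 UDP-glucuronosyltransferases, sulfotransferases and carboxylesterases 6 rose, with a median of 0.20: Sult1e1, Ces1b, Ces2e, Ugt2b1, Ugt2b34 and Ugt2b35. Ces2e went from 7.97 and 7.10 to 9.69 and 9.58, and Ugt2b1 from 9.23 and 9.50 to 11.36 and 10.44. Ces1b went from 6.72 and 7.64 to 9.75 and 8.83. Ugt2b34 was at 7.98 and 8.61 in untreated and at 10.12 and 8.67 in heterozygous livers, so heterozygous array 4 was just above the untreated pair. Outside these lists, and chosen after their values were seen, Adh7 rose by 2.33 ± 0.39, Aldh1a1 by 1.63 ± 0.27, Maoa by 1.54 ± 0.29 and the steroid hydroxylase Cyp17a1 by 2.26 ± 0.40. Without heterozygous array 3, heterozygous array 4, untreated array 1 and untreated array 2 in turn, the 4 transferase calls became 2, 1, 1 and 2. The 6 conjugation calls became 1, 3, 2 and 5.

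**Figure D2:**
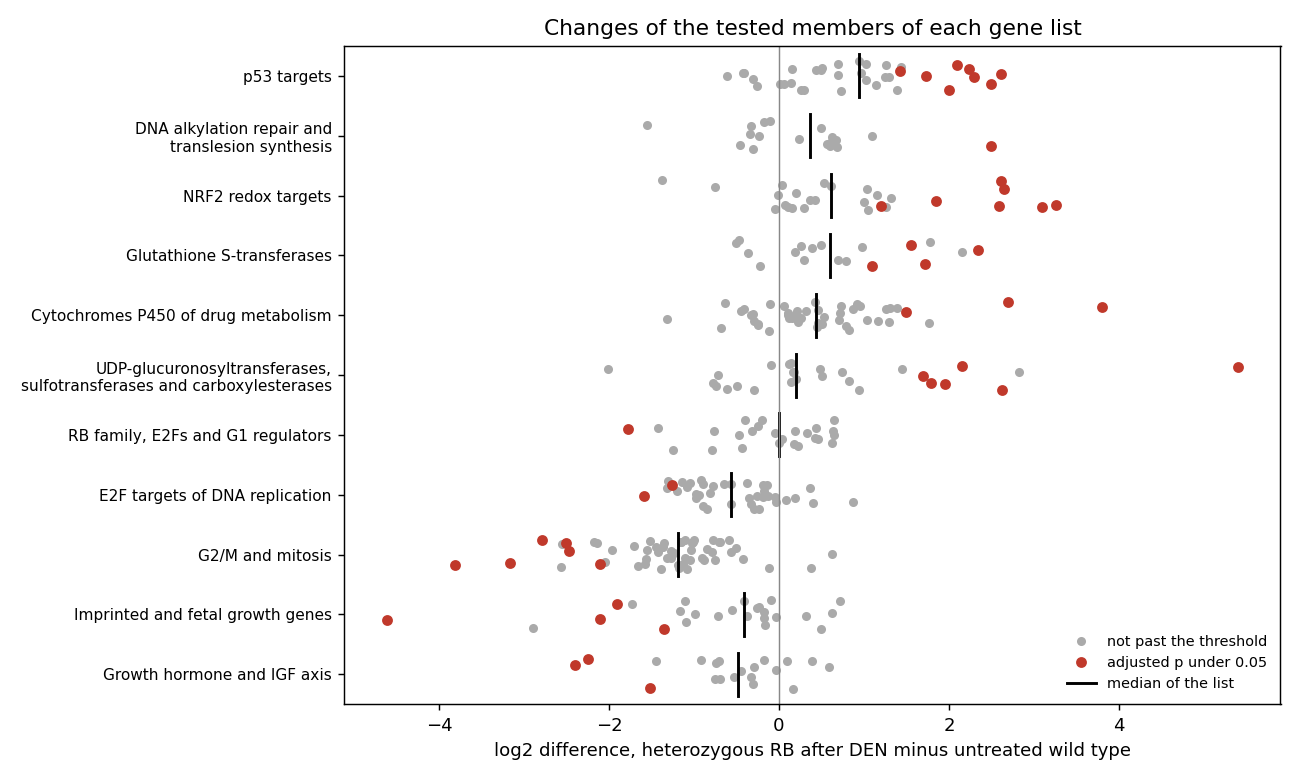
The plot shows, for 11 gene lists, the log2 difference of every tested member between heterozygous livers after DEN and untreated livers. Red points passed an adjusted p of 0.05, grey points did not, and black bars are list medians. The medians run from 0.94 for p53 targets to -1.19 for mitosis genes.

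Several genes of mitosis fell. Of 55 tested members 6 fell, against 0.729% of all genes tested, none rose and 49 did not pass, and the median difference was -1.19. In 51 of the 55 both heterozygous livers were below both untreated livers, against 3973 of the 14953 genes tested. The mean of the list was 7.37 and 7.13 in untreated and 5.99 and 5.90 in heterozygous livers. Birc5, survivin, a subunit of the chromosomal passenger complex, was at 8.55 and 8.26 in untreated and at 4.61 and 4.46 in heterozygous livers, and fell by 3.81 ± 0.77. The treated levels lay near the floor, and the difference was -5.23 with an offset of 1 and -2.65 with an offset of 50. Ube2c, the ubiquitin-conjugating enzyme of the anaphase-promoting complex, was at 9.27 and 9.11 in untreated and at 6.86 and 4.69 in heterozygous livers, a difference of -3.16 ± 0.47. Heterozygous array 4 was the lower of the pair for Ube2c. Plk1, the polo kinase of mitotic entry, went from 8.74 and 8.38 to 5.79 and 6.20, a difference of -2.79 ± 0.41 (adjusted p 0.0059). Ccnb2, cyclin B2, went from 8.23 and 8.46 to 6.37 and 6.28, a difference of -2.11 ± 0.31 (adjusted p 0.00551). Mki67, the antigen Ki-67 of cycling cells, fell from 8.76 and 8.98 to 6.51 and 6.22, and Nusap1, a spindle protein, from 8.06 and 7.38 to 5.14 and 5.91. The 6 genes were lower in both heterozygous livers, with no overlap, which their being called with the same arrays largely fixes. Large differences that did not pass were those of Anln (-2.56), Kif11 (-2.55), Cenpe (-2.17), Foxm1 (-2.14) and Top2a (-1.96), while Cdk1 stood at -0.75. Espl1 (0.38) and Ckap2 (0.63) had values above 0. Cenpk, a kinetochore protein outside the list, went from 7.90 and 7.61 to 5.56 and 5.25. Further kinetochore and spindle genes, chosen after their values were seen, were Sgo2a (-2.13 ± 0.35), Cenps (-1.65 ± 0.33), Dsn1 (-1.69 ± 0.39), Mis18a (-1.48 ± 0.34) and Stmn1 (-1.84 ± 0.35). The 6 calls became 3 without heterozygous array 3, 2 without heterozygous array 4, 1 without untreated array 1 and 5 without untreated array 2. Without knockout array 2, 23 of the 55 were lower. In wild type livers after DEN 5 of the 55 were lower and the median was -1. Heterozygous minus wild type was -0.39 for Ccnb2 (-1.01 to 0.23), -0.65 for Plk1 (-1.5 to 0.19) and -1.75 for Ube2c (-2.72 to -0.79), none past the adjusted threshold. In whole liver, fewer cycling cells and less RNA per cell cannot be told apart.

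Ccnb2 and Plk1 had the smallest p of the called mitosis genes and hold the cell cycle homology region (CHR), TTTGAA, a site through which mitotic genes are held back in resting cells. It is in capitals below.
Ccnb2, chr9:70421505-70421804, minus strand: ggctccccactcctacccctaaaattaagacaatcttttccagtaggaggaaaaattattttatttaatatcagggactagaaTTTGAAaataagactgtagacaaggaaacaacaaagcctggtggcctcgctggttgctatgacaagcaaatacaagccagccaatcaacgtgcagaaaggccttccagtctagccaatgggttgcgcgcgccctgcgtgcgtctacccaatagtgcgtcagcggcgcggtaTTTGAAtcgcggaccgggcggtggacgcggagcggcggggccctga
Plk1, chr7:122159185-122159484, plus strand: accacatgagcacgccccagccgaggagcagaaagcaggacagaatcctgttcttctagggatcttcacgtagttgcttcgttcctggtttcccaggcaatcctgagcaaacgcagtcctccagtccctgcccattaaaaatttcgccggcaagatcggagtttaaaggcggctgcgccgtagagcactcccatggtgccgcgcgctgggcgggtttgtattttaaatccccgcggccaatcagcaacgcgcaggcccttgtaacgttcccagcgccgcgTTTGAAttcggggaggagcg
The CHR letters, searched on both strands, were in 38 of 49 windows of tested mitosis genes (77.6%, from 46 of the 55 genes). They were in 13.8% of windows of all genes tested. The share was 16% for all genes that fell and 16.4% for all genes that rose. Ube2c and Mki67 held a CHR or an E2F site, and Nusap1 and Birc5 held neither.

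**Figure D3:**
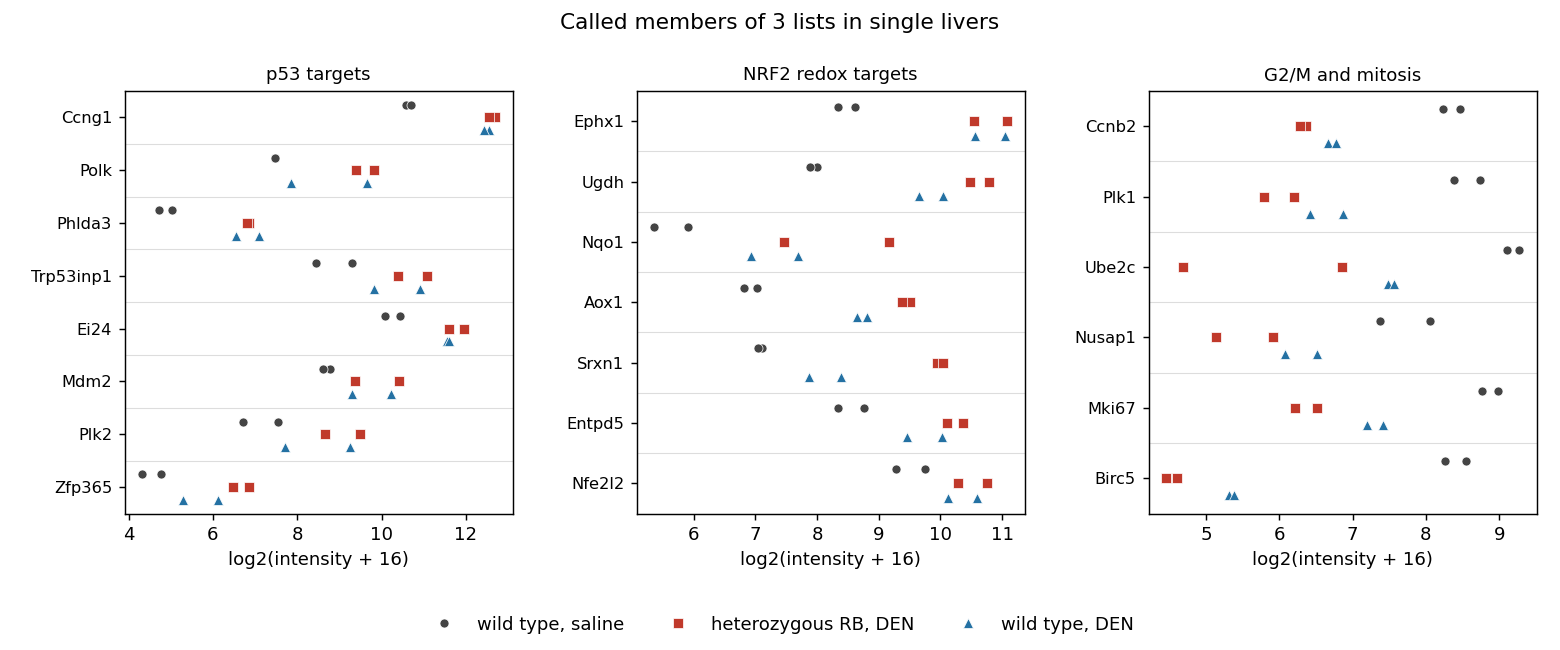
The plot shows log2(intensity + 16) in each liver for the called members of the p53, NRF2 and mitosis lists, with circles for untreated wild type, squares for heterozygous RB after DEN and triangles for wild type after DEN. Both heterozygous livers lie above the untreated pair for every p53 and NRF2 gene shown and below it for every mitosis gene shown.

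Few replication genes passed the test. Of 38 tested E2F targets of DNA replication 2 fell, against 0.729% of all genes tested, and none rose. The median of this list was -0.56, with 33 values below 0. Chaf1a, a subunit of the replication-coupled chromatin assembly factor, went from 7.30 and 6.90 to 5.66 and 5.64. Dnmt1, the maintenance DNA methyltransferase, went from 9.72 and 9.93 to 8.63 and 8.57. Neither call was made when any 1 of the 4 livers was left out. The clamp protein Pcna (-1.08), the helicase subunits Mcm3 (-0.98) and Mcm2 (-0.18) and the nuclease Fen1 (0.87) did not pass. An E2F site, searched as TTTCCCGC, TTTGGCGC, TTTGCCGC or TTTCGCGC on both strands, was in 11 of 38 windows of this list (28.9%) and in 3.2% of windows of genes tested. Of 25 tested genes of the RB family, E2Fs and G1 control 1 fell, Cdk2, the kinase of S phase entry. It went from 7.85 and 7.13 to 5.96 and 5.38, a call kept in 9 of 18 alternatives. The RB relatives Rbl1 (0.04) and Rbl2 (0.19), the cyclin Ccnd1 (-0.25) and the repressors E2f7 (-1.25) and E2f8 (-1.42) did not pass, and E2f1 and E2f2 were too dim to test. Of 14 tested histone and chromatin protein genes 2 fell, Hmgb2 (from 10.93 and 10.79 to 9.19 and 9.20) and Hmgn2 (from 10.97 and 10.55 to 9.36 and 9.66). Neither of these calls was made when any 1 of the 4 livers was left out. Wee1, which restrains CDK1 before mitosis, was chosen after its value was seen and rose by 2.18 ± 0.33.

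A few fetal growth genes fell, among them the gene with the largest decrease of those called that are not predicted loci. Igf2, the imprinted fetal growth factor, was at 12.49 and 12.71 in untreated and at 7.75 and 8.89 in heterozygous livers, a difference of -4.61 ± 0.52 (adjusted p 0.00151). Wild type livers after DEN were as low, at 8.35 and 8.25, and heterozygous minus wild type was 0.02 (-1.03 to 1.07). The knockouts had Igf2 at 9.85 and 11.41, and the 5 N750F livers ran from 10.96 to 12.60 with a median of 12.24, near the untreated level. Of 25 tested imprinted and fetal growth genes 4 fell, against 0.729% of all genes tested, none rose and 21 missed the threshold, and the list median was -0.41. Gpc3, glypican 3, a fetal liver proteoglycan, went from 8.91 and 8.48 to 6.49 and 6.68. Cd24a, a surface marker of immature hepatic cells, went from 8.74 and 8.51 to 6.94 and 6.89, and Cdkn1c, the imprinted inhibitor p57, from 9.33 and 8.95 to 7.86 and 8.19. Afp, alpha-fetoprotein, had -2.89 and did not pass, and Dlk1 had -0.09. Of 20 tested genes of the growth hormone and IGF axis 3 fell, with a median of -0.48. These were Igfbp4, a binding protein of IGFs (from 10.69 and 10.23 to 8.44 and 7.69), Socs2, a feedback inhibitor of growth hormone signalling (from 11.38 and 11.07 to 9.27 and 9.48), and Igf1 (from 11.80 and 11.88 to 10.40 and 10.56). Both heterozygous livers were below both untreated livers for these 7 genes, against 3973 of the 14953 genes tested. Their being called with the same arrays largely fixes this. Leaving out heterozygous array 3, heterozygous array 4, untreated array 1 or untreated array 2 left 1, 2, 1 or 2 of the 4 fetal calls and 1, 0, 0 or 1 of the 3 axis calls.

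Among hepatocyte functions the changes were few. Of all genes tested 0.675% were called higher and 0.729% lower. Slc22a7, an organic anion transporter, fell from 9.25 and 8.53 to 6.04 and 6.36, a difference of -3.18 ± 0.41, and Baat, which conjugates bile acids, rose from 8.22 and 7.99 to 9.54 and 9.77. They were the only 2 of 28 tested bile acid and transporter genes to pass. Of 18 alternatives 16 kept the Slc22a7 call and 8 that of Baat. Of 27 hepatocyte transcription factors 1 fell, Creb3l3, a regulator of lipid and iron genes, from 10.18 and 9.71 to 8.54 and 7.98. That call was kept in 11 of 18 alternatives. Of 31 genes of fatty acid synthesis and storage 3 fell: Fabp5, a fatty acid binding protein (from 8.68 and 9.02 to 6.60 and 6.58), Elovl5, a fatty acid elongase (from 11.05 and 10.95 to 8.91 and 8.55), and Fads2, a desaturase (from 10.14 and 9.93 to 8.31 and 6.88). Those 3 calls became 1 without heterozygous array 4 or untreated array 1. Bdh1, of ketone metabolism, fell from 9.31 and 9.11 to 8.02 and 7.53, 1 of 26 oxidation genes, a call kept in 6 of 18 alternatives. No gene of that list was called lower with an offset of 1, no batch term, no quantile normalisation or the Y-linked covariate. Without both knockout arrays 3 were lower. Car3, a carbonic anhydrase abundant in liver, fell from 11.85 and 11.69 to 9.28 and 8.75, while wild type livers after DEN had 10.48 and 11.21. None of 22 cholesterol, 20 glycolysis and gluconeogenesis or 39 urea cycle and amino acid genes passed the limma test. The largest of these differences were those of Acmsd, of tryptophan catabolism (2.04 ± 0.58), Glul, glutamine synthetase (-1.28 ± 0.33), and Fbp1, of gluconeogenesis (-1.19 ± 0.31). Usp2, a deubiquitinase of the clock list, rose from 6.70 and 6.99 to 8.41 and 7.77, the 1 call among 18 genes. It was kept in 11 of 18 alternatives.

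Acute phase and metal-binding genes moved in both directions. Of 32 tested 1 rose and 5 fell, against 0.675% and 0.729% of all genes tested, with a median of -0.34. Orm1, orosomucoid, rose from 4.97 and 5.86 to 8.66 and 8.89, a change of 3.05 ± 0.42. The metallothioneins, which bind zinc, fell: Mt1 from 12.46 and 12.67 to 10.65 and 10.60, and Mt2 from 12.08 and 12.15 to 10.34 and 10.30. A2m, a protease inhibitor, fell from 6.87 and 7.44 to 4.42 and 4.83. These heterozygous levels lay near the floor, and the difference of -2.98 was -1.89 with an offset of 50. With an offset of 1 A2m was too dim to test, and its call was kept in 8 of 16 alternatives. Mbl1, a mannose-binding lectin, fell from 9.43 and 9.18 to 7.65 and 8.32, and Fga, a fibrinogen chain, from 11.34 and 11.30 to 9.88 and 10.23. Both heterozygous livers were above both untreated livers for Orm1 and below both for the 5 that fell. Their being called with the same arrays largely fixes this. Over all 32 tested members 6 were above and 18 below in this way, against 2571 and 3973 of the 14953 genes tested. Wild type livers after DEN showed Mt1 at 10.38 and 11.06. The 5 lower calls became 2 without heterozygous array 3, heterozygous array 4 or untreated array 1, and 3 without untreated array 2. Atf5, of the stress response, was the 1 call among 31 genes of the unfolded protein and ATF4 list, at 8.85 and 11.10 in untreated and 7.60 and 9.10 in heterozygous livers. These overlap, and the difference was -1.75 without untreated array 2 and -3.99 without untreated array 1. None of 31 interferon genes passed, Psmb9 being nearest at 1.34 ± 0.31 (adjusted p 0.0535).

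A minority of the markers of some non-hepatocyte cell types fell. Of all genes tested 0.729% were called lower, and the median difference over all was -0.04. Of 19 tested Kupffer cell and macrophage markers 2 fell, with a median of -0.74, and the list mean was 8.38 and 7.94 in untreated and 7.40 and 7.35 in heterozygous livers. Aif1 went from 7.36 and 6.63 to 5.15 and 5.44, and Cd5l, a Kupffer cell protein, from 8.84 and 7.79 to 6.62 and 7.98, with overlap. The defining markers Csf1r (-1.48), Clec4f (-1.39) and Adgre1 (-0.85) did not pass. Of 22 endothelial markers 2 fell, Cdh5, VE-cadherin (from 9.16 and 8.68 to 7.65 and 6.49), and Gpr182, a sinusoidal receptor (from 9.29 and 9.03 to 7.47 and 7.69). The endothelial median was -0.37, with 9 members above 0 and 20 not past the test. Of 8 neutrophil markers 1 fell, S100a8, from 7.56 and 7.27 to 5.35 and 5.94, with a list median of -0.31 and 2 members above 0. It was not called without heterozygous array 3, heterozygous array 4 or untreated array 1. Of 9 erythroid markers 1 fell, Slc4a1, the red cell anion exchanger, from 6.84 and 6.82 to 5.48 and 5.43. The erythroid median was -0.28 with 4 members above 0, and this call was lost without heterozygous array 4, untreated array 1 or untreated array 2. Of 16 stellate cell and fibroblast markers 1 fell, Reln, from 10.36 and 9.93 to 8.54 and 7.91. The median of that list was -0.16 with 6 members above 0, and the call was lost when any 1 of the 4 livers was left out. Of 31 extracellular matrix genes Col14a1 and Eln fell, with a median of -0.37, and neither was called without heterozygous array 3, heterozygous array 4 or untreated array 1, while 1 was called without untreated array 2. None of 9 cholangiocyte, 9 B cell, 7 T and NK cell, 5 platelet, 5 muscle or 7 pancreas markers passed. The muscle marker Ttn had an SE of 1.70, with a level of 13.59 in knockout array 2. Hepatocyte markers had a median of -0.22 with none of 17 past the test, from -0.71 for Hpx to 1.18 for Tat. The part of cell composition in the gene lists above was not tested. Without heterozygous array 3, heterozygous array 4 or untreated array 1 none of the Kupffer calls was made, and without knockout array 2 there were 5. Neither endothelial call was made when any 1 of the 4 livers was left out.

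**Figure D4:**
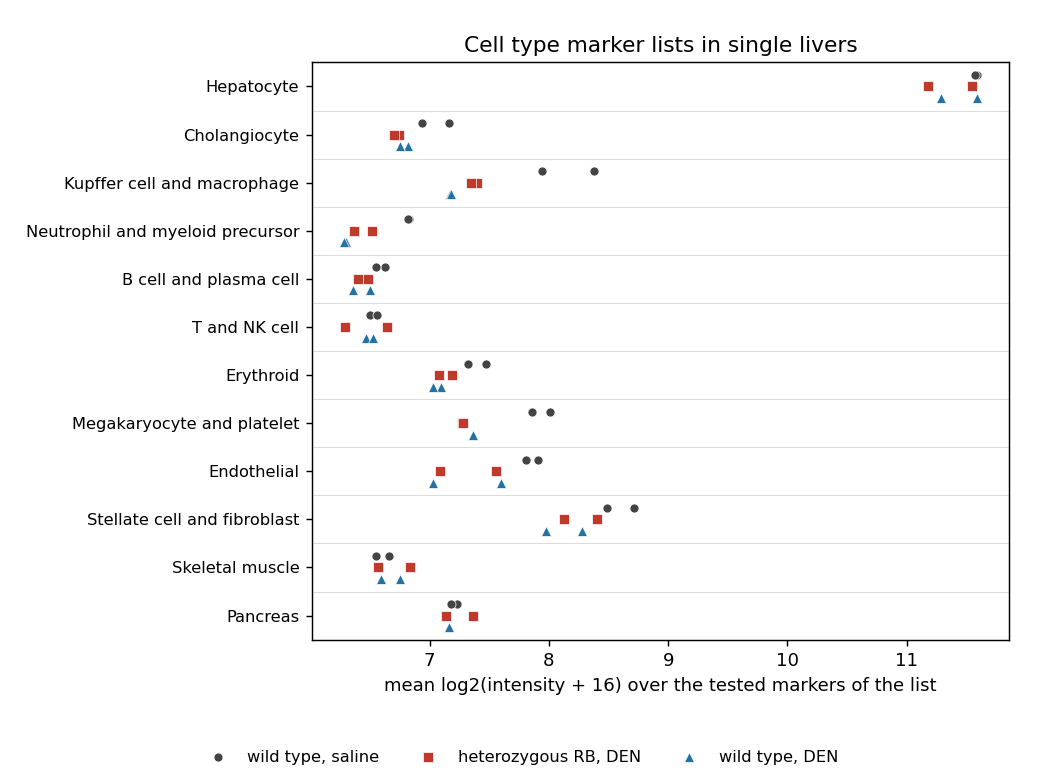
The plot shows the mean log2(intensity + 16) over the tested markers of 12 cell type lists in each liver, with circles for untreated wild type, squares for heterozygous RB after DEN and triangles for wild type after DEN. The Kupffer cell list is at 8.38 and 7.94 in untreated and 7.40 and 7.35 in heterozygous livers, while the hepatocyte list lies between 11.18 and 11.59 in every liver shown.

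Heterozygous and wild type livers were also compared directly after DEN, where the untreated arrays cancel out. No untreated heterozygous liver was analysed here and only the heterozygous mice carried Cre, so a different response to DEN, a difference present before it and an effect of Cre cannot be told apart. Of 14953 genes 1 passed (0.00669%), and 1029 had an unadjusted p under 0.05. This gene was Akr1c18, the enzyme that inactivates progesterone. Akr1c18 was at 10.47 and 10.32 in heterozygous and at 5.93 and 4.84 in wild type livers after DEN, a difference of 5.01 ± 0.56 (95% interval 3.80 to 6.22, adjusted p 0.00641). The untreated livers lay between, at 9.30 and 7.77, the lower being the female-type one. Heterozygous minus untreated was 2.09 ± 0.59 (adjusted p 0.102) and wild type after DEN minus untreated was -2.93 (adjusted p 0.0431). The male-type N750F liver (array 1) held 10.06, and the female-type ones (arrays 2 to 5) held 9.33, 9.78, 8.41 and 10.42. The knockouts, both male-type, held 10.51 and 10.88. Since both heterozygous livers were male-type and both wild type livers after DEN female-type, genotype and sex cannot be told apart within these pairs. With a covariate for the Y-linked level it was 4.15 with an adjusted p of 0.35. Without heterozygous array 4 it was 4.82 (adjusted p 0.195) and without wild type array 4 it was 4.6 (adjusted p 0.231). In batch 1 alone it was 4.55 (adjusted p 0.159).

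None of the next 7 genes by p passed. Cyp1a1, a P450 induced through the aryl hydrocarbon receptor, was at 7.72 and 8.00 in heterozygous livers, above the 11 other arrays of the series, which ran from 5.20 to 6.42. It differed from wild type after DEN by 1.71 (1.09 to 2.33) and rose against untreated by 1.5 ± 0.30 (adjusted p 0.0319), a call kept in 6 of 17 alternatives. Mup3, a major urinary protein, was at 5.37 and 5.67 in heterozygous and 6.97 and 8.60 in wild type livers after DEN. Its difference was -2.27 (-3.29 to -1.24), and members of that family are near copies whose probes may share signal. Cyp2f2, a P450 of periportal hepatocytes, differed by -1.40 (-1.96 to -0.83) and Sntg2, a syntrophin, by -1.51 (-2.15 to -0.87). Mthfd1l, of mitochondrial folate metabolism, differed by 1.34 (0.74 to 1.95), Nipal1, a magnesium transporter, by 1.13 (0.64 to 1.61), and Susd6 by -1.28 (-1.87 to -0.69). For all 8 genes the heterozygous and wild type pairs were apart, which their choice by p in this same comparison largely fixes. With only 1 call no list can be said to differ between the genotypes.

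**Figure D5:**
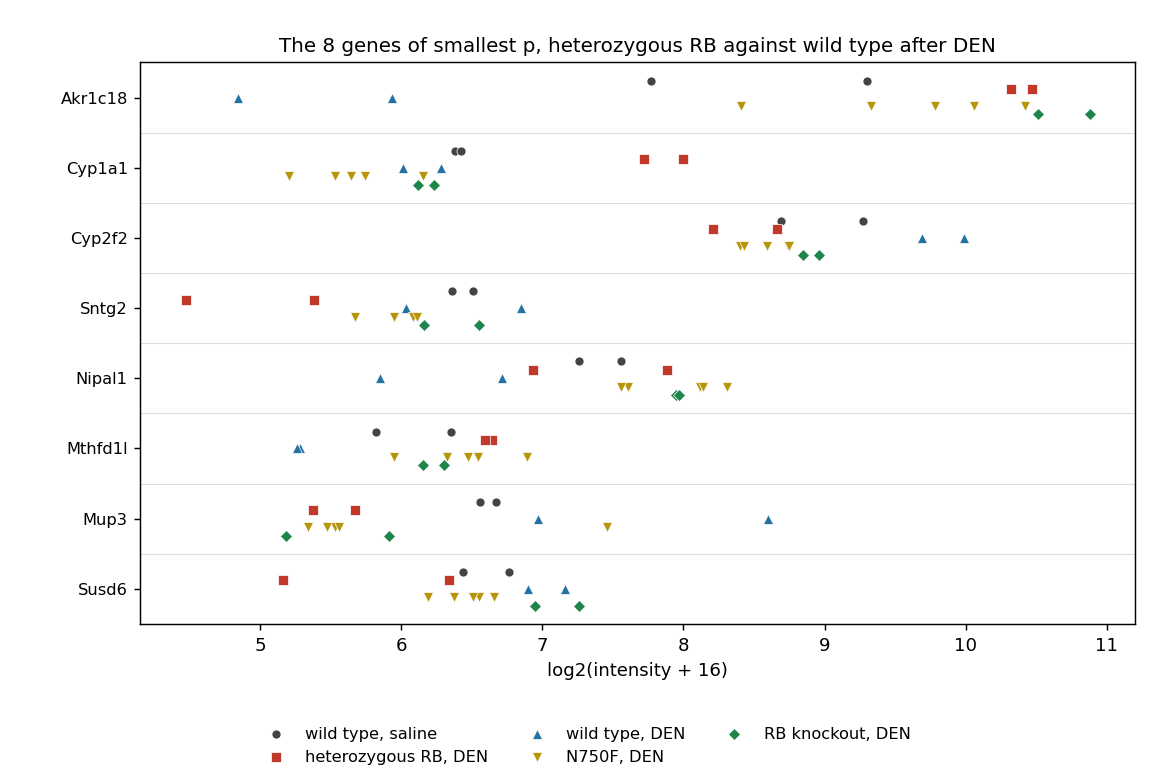
The plot shows log2(intensity + 16) in all 13 livers for the 8 genes of smallest p between heterozygous and wild type livers after DEN, by group. Akr1c18 in the wild type livers after DEN, at 5.93 and 4.84, lies below every other array, and Cyp1a1 in the heterozygous livers, at 7.72 and 8.00, lies above every other array.

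Set beside each other against the shared untreated arrays, wild type livers after DEN had 103 genes called (0.689%), 45 higher and 58 lower, and heterozygous livers had 210. The unequal counts are not a test of a difference between the genotypes. For Cyp4f14 and Ephx1 the wild type changes were 2.66 and 2.64, beside 2.70 and 2.65 in heterozygous livers. For Cyp2c38 it was 2.50 beside 3.80, and for Sult1e1 4.19 beside 5.40, with differences of 1.31 (0.67 to 1.94) and 1.21 (-0.01 to 2.43) that did not pass after adjustment. Larger differences short of the threshold were also seen for Car3 (-1.83, interval -2.74 to -0.92) and Cenpk (-1.62, interval -2.59 to -0.65), both lower in heterozygous livers.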

How the data were processed

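RNA of frozen mouse liver was amplified and labelled with biotin for Affymetrix arrays of 1 colour, as the labels' protocols state. The deposited values were 1 linear intensity per probe set for 35556 probe sets on 13 arrays, and the submitters' processing notes list RMA and Affymetrix Expression Console 1.1 without saying what each did. Probe positions and the genome build are not given in the sources used here. The deposited intensities ran from 0.000427 to 17831.

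They were quantile-normalised over the 13 arrays, with values then transformed as log2(value + 16), so that changes of dim genes are understated. Probe sets with 1 gene symbol in GEO's platform annotation were named (21789, against 1621 with several symbols), and 21698 symbols were updated through the RefSeq gene table. The probe set of highest mean stood for a gene, giving 19938 genes, and those under the 25th percentile were left out, so that 14953 were tested. The number of arrays limits the precision.

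A model in limma 3.58.1 (lmFit and eBayes, R 4.3.3) held the 5 groups and the array batch, read from the raw array names in the labels, with 7 residual degrees of freedom. Every adjusted p is from this model, by Benjamini-Hochberg over all genes tested, with a threshold of 0.05, and errors of changes are SE. The steps were tested on simulated data. The comparison, the 37 gene lists and the tests were chosen with earlier results of these data known. Of 1066 list entries 954 were measured and 821 tested, 19 of them through an older symbol.

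Genes were named by a rule: Rb1, up to 12 called genes per direction of largest change without predicted loci, small RNAs and sex-linked genes, up to 6 called members of each list by p, or up to 3 where none was called, and 8 genes by p between heterozygous and wild type after DEN. Further genes are named where a count or a description of a list required it. Promoter windows were from RefSeq on GRCm38.p6. Heterozygous and untreated arrays share no replicate number. Numbers 3 and 4 of the heterozygous and wild type DEN arrays coincide with the batches.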

Additional observations from a re-analysis of the deposited data

Results flagged for a closer look

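Akr1c18 differed between heterozygous and wild type livers after DEN. Against untreated liver the heterozygous value was 2.09 (adjusted p 0.102), which did not pass, and the wild type value was -2.93 (adjusted p 0.0431). The test of the difference between them gave 5.01 on the log2 scale (adjusted p 0.00641, limma), with levels of 10.47 and 10.32 in the heterozygous and 5.93 and 4.84 in the wild type livers. The heterozygous livers were both male-type and the wild type livers after DEN both female-type, and the part of sex cannot be told apart between these pairs.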

How the results depend on the processing

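The direction of the named changes held under the alternatives run, except for 2 genes that were not called. Ckm was 0.13 with no batch term and in a fit of only the 4 arrays of the 2 groups, and ran from -0.24 to 0.02 with 1 liver left out (0.02 without untreated array 2), and Nipal1 was -0.01 with no batch term and with only the 4 arrays. The number of calls for heterozygous against untreated, 210, moved with most settings. It was 71 with no quantile normalisation, 109 with an offset of 1, 341 with an offset of 50, 65 with no batch term, 2 in batch 1 alone, 100 with a covariate for the Y-linked level, 368 with a trend and robust prior, 407 without both knockout arrays and 30 with only the 4 arrays. It was 407 without knockout array 2, an alternative added after the data were seen. It stayed within 1.5 times for no filter on dim genes (154), a filter at the 50th percentile (256) and the mean of a gene's probe sets (204). Leaving out 1 liver of the pair gave 28 to 104. The single call between heterozygous and wild type after DEN became 0 in batch 1 alone and with the Y-linked covariate, 4 with only the 4 arrays, and 0 to 131 with 1 liver left out. Where 1 liver was left out, the lone array was assumed to vary like the other groups. The count for wild type after DEN against untreated, 103, became 22 with no quantile normalisation, 51 and 193 with offsets of 1 and 50, 37 with no batch term, 1 in batch 1 alone, 26 with the Y-linked covariate, 211 with the trend and robust prior, 226 without both knockout arrays or without knockout array 2, 2 with only the 4 arrays, and 4 to 147 with 1 liver left out.

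With the replicate number as a replicate block in place of the batch, 9 genes were called for heterozygous against untreated, 8 of them among the 210, 0 for wild type after DEN against untreated and 1 for heterozygous against wild type. Heterozygous and untreated livers share no number. The deviations of heterozygous array 3 and wild type array 3 from their group means correlated at 0.452, and these numbers coincide with the batches.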
